A study of Mus musculus with 6 samples.

Results

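The RNA of DNA transposon fossils was examined in cultured mouse keratinocytes that had lost the maintenance DNA methyltransferase DNMT1. The members were every repeat name of the deposited repeat count table that starts with Charlie, Tigger, URR1, MARNA, Arthur, Ricksha, Cheshire, Zaphod, Kanga, Looper, MamRep, ORSL, Eulor or Chap, which gave 100 of 1067 repeat names. Of these, 47 were hAT names (35 Charlie, 4 Arthur, 3 Cheshire, 3 Zaphod and 2 URR1 names) and 21 were Tigger names. The other 32 were 9 MamRep, 7 Kanga, 6 Eulor, 5 Ricksha, 3 ORSL, 1 MARNA and 1 Looper name, while no name in the table starts with Chap. These classes go by the start of the name alone. The MamRep, Eulor and ORSL names were not assigned to a superfamily, so the others may include hAT or Tigger relatives. A repeat name pools all genomic copies of one kind of element, so its count says nothing about which copy was transcribed, nor whether the RNA began in the element or ran through it from a gene.

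RNA libraries numbered 6 in all, 3 from control mice and 3 from Dnmt1Δ/Δep mice, all labelled female. Dnmt1Δ/Δep mice carry 2 loxP-flanked Dnmt1 alleles and a Cre transgene under the Keratin 5 promoter, which deletes the gene in basal keratinocytes and their descendants and leaves other skin cells with DNMT1, and the controls lacked Cre and carried 1 or 2 loxP-flanked Dnmt1 alleles. Both groups shared a mixed C57BL/6J and 129SV background, and the epidermal cells of both were taken at postnatal day 3 and, per the labels, cultured for 5 days (a figure legend of the study gives a shorter culture). Poly(A)-selected RNA was sequenced to 53433121 to 115526598 reads assigned to genes and 4940679 to 28673709 reads assigned to repeats per library.

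DNA transposons move by a cut-and-paste mechanism, in which a transposase recognises the inverted repeats at the ends of the element, excises it and inserts it elsewhere. In mice these families stopped moving long ago and persist as short, mutated copies, many of them within introns or untranslated ends of genes. The hAT superfamily includes the Charlie-type elements (Charlie, URR1, Cheshire) and the Tip100-type elements (Arthur, Zaphod), Tigger elements are pogo-like members of the Tc1/mariner superfamily, MARNA and Kanga are other mariner relatives, Looper is a piggyBac element and Ricksha is MuDR-like. DNMT1 copies CpG methylation onto the new DNA strand after replication, and this methylation helps to keep younger retrotransposons, such as intracisternal A particles (IAP), silent in somatic cells.

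The labels were first checked with the deleted gene. Dnmt1 (ENSMUSG00000004099, GRCm38 chromosome 9, 20907209 to 20959888) had 394, 379 and 324 CPM (counts per 1000000 gene reads) in control and 49.7, 54.3 and 50.7 CPM in Dnmt1Δ/Δep libraries (log2 fold change −2.83, SE 0.11, edgeR adjusted p = 8.12e-05). The keratinocyte markers Krt5, Krt14, Trp63, Krt1 and Krt10 summed to 26680 to 29990 CPM in control and 18940 to 19600 CPM in Dnmt1Δ/Δep libraries, and all 5 were lower in the mean. Krt5 (log2 −0.50, edgeR adjusted p = 0.0380) and Krt14 (log2 −0.61, adjusted p = 0.0275) fell by less than 2-fold, and the other 3 did not pass. Of these, Krt1 (log2 −2.30, SE 0.69, edgeR adjusted p = 0.0846) and Krt10 (log2 −1.58, SE 0.44, adjusted p = 0.0695) had larger negative values, and Trp63 was at −0.26. Krt1, a keratin of differentiating cells, had 53.2, 356 and 530 CPM in control and 66.1, 59.2 and 65.5 CPM in Dnmt1Δ/Δep libraries, so that control replicate 1 lay with the Dnmt1Δ/Δep group. Of the other cell types checked, the melanocyte markers Dct, Mlana and Pmel summed to 134 to 342 CPM in control and 416 to 541 CPM in Dnmt1Δ/Δep libraries, with 3 of 3 higher in the mean and none called, and the endothelial marker Pecam1 rose from 1.47 to 2.65 CPM to 5.98 to 8.62 CPM. The 3 fibroblast markers summed to 7.0 to 15.6 against 8.13 to 39.4 CPM, and the leukocyte gene Ptprc stayed at or below 0.201 CPM in every library. In bulk RNA, fewer cells of a type and less RNA per cell cannot be told apart, and the part of these cell types in the results below was not tested.

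All DNA transposon names together had 67339 to 159539 reads per library. They held 11.2, 12.4 and 13.6 of every 1000 repeat reads in control replicates 1, 2 and 3, but 5.63, 4.96 and 5.56 in Dnmt1Δ/Δep replicates 1, 2 and 3, so that the groups did not overlap. The denominator itself moved: repeat reads were 8.87 to 12.2 per 100 gene reads in control and 22.7 to 28.1 in Dnmt1Δ/Δep libraries, and a single retrotransposon name, IAPEz-int, took 0.994% to 2.16% of the repeat reads in control and 26.0% to 30.1% in Dnmt1Δ/Δep libraries. Per 1000 gene reads the DNA transposon names held 1.37, 1.1 and 1.26 reads in control and 1.58, 1.13 and 1.38 reads in Dnmt1Δ/Δep libraries. On that scale each Dnmt1Δ/Δep library lay above the control library of the same number, yet the groups overlapped, and the mean was 1.1 times that of the controls.

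The fit therefore used TMM factors, which scale each library so that most repeat names keep their level, and levels of repeat names are given below as repeat CPM, the reads per 1000000 repeat reads on this scale. The factors were 1.32 to 1.48 in control and 0.610 to 0.796 in Dnmt1Δ/Δep libraries. Levels are not divided by length or copy number, so they say how many reads a name took and not how strongly 1 copy was transcribed.

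**Figure D1:**
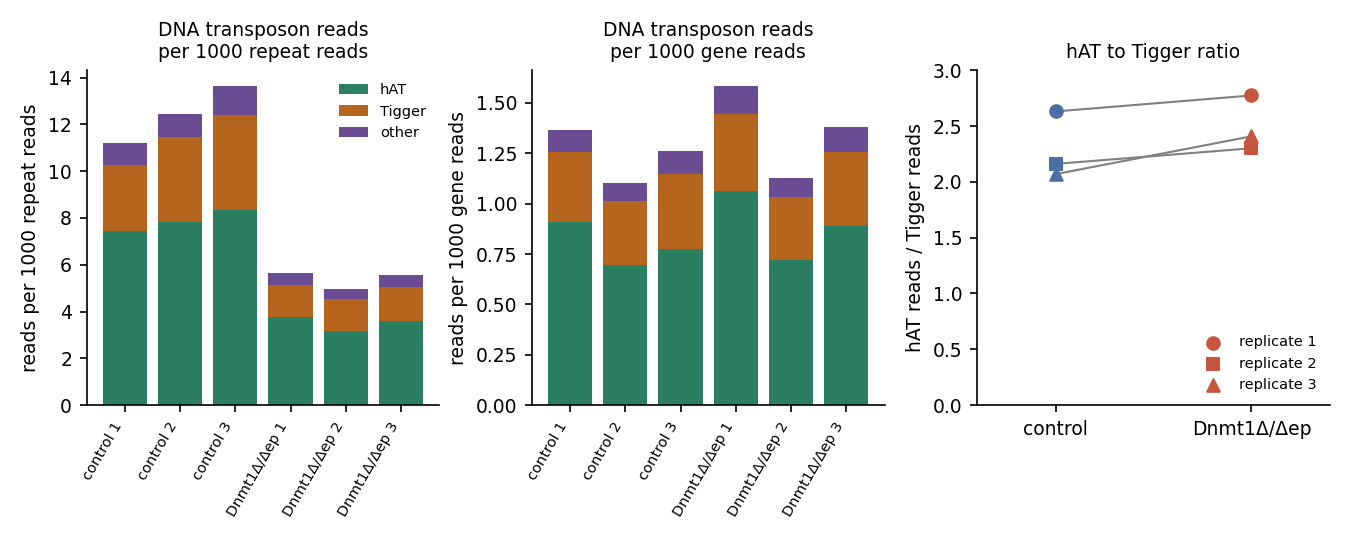
Reads of hAT, Tigger and other DNA transposon names in each of the 6 libraries, stacked, per 1000 repeat reads (left) and per 1000 gene reads (middle), and the ratio of hAT to Tigger reads (right), where a line joins libraries with the same replicate number. The share of repeat reads was 11.2 to 13.6 per 1000 in control and 4.96 to 5.63 in Dnmt1Δ/Δep libraries, the reads per 1000 gene reads overlapped between groups, and the ratio was higher in the Dnmt1Δ/Δep library of each replicate number.

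A pair of short hAT elements of rodents dominated the signal. URR1A took 19.2% and URR1B 18.3% of the members' mean level, and together they made up 57.8% to 59.5% of the hAT reads in every library. The next names were Tigger5 with 7.26%, Tigger7 with 4.89%, Charlie8 with 3.52% and Tigger1 with 3.38%, and the 10 most abundant names, which also included MARNA, Charlie1a, Tigger14a and Charlie6, took 67.1% of the total. At the other end, 13 names had too few reads for the main fit, with 0 to 44 reads over the 6 libraries. They were Charlie10b, Charlie1b_Mars, Cheshire_Mars, Cheshire_Mars_, Eulor1, Eulor11, Eulor8, Eulor9B, Eulor9C, MamRep488, Ricksha_a, Ricksha_b and Tigger1a_Mars, the last with no read at all. In that case a count of 0 allows up to 3 counts, or 0.139 to 0.410 repeat CPM by library. The fit tested the other 87 members (43 hAT, 20 Tigger and 24 others) among 938 repeat names.

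A name was called when its edgeR quasi-likelihood test gave a Benjamini-Hochberg adjusted p of at most 0.05 over all 938 names and its change was at least 2-fold. Ricksha_0 and Arthur1C rose, and no member fell. These 2 were 2.30% of the 87 tested members, while 8.21% of all repeat names tested were called higher (77 of 938) and 0% were called lower. At the adjusted p alone, without the fold threshold, the counts were again 2 higher and 0 lower members, against backgrounds of 9.91% and 0.746%. Other settings moved the members and all names together. Upper-quartile factors gave 1 higher (1.15%) and 26 lower (29.9%) members beside 8.96% and 19.2% of all names, gene-read library sizes gave 3 higher (3.41%) and 0 lower beside 12.0% and 0%, and gene-read sizes combined with the replicate number as a block gave 18 higher (20.5%) and 1 lower (1.14%) beside 41.9% and 1.06%. At an unadjusted p of at most 0.05, 6 members (6.90%) were higher and 9 (10.3%) lower, where 16.0% and 7.57% of all names were, and DESeq2 called 3 of 99 members higher (3.03%, beside 7.35% of all names) and 0 lower. At both thresholds, edgeR called 3 members higher (3.45%) with the block, 3 (3.41%) with gene-read sizes and 6 (6.82%) with both, beside 8.85%, 10% and 12.3% of all names.

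Ricksha_0 had the largest change of all members. Its counts were 21, 6 and 10 in control replicates 1, 2 and 3 and 84, 79 and 136 in Dnmt1Δ/Δep replicates 1, 2 and 3. These correspond to 1.34, 0.506 and 1.37 against 6.20, 6.57 and 6.28 repeat CPM, so that the 3 Dnmt1Δ/Δep libraries lay close together and well above every control library. The fitted change was 5.95-fold (95% interval 3.45 to 10.2; log2 2.57, SE 0.33, edgeR adjusted p = 0.00166). It passed in all 13 alternative analyses, with a log2 change of 2.24 to 2.95.

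The other Ricksha names had smaller or no measurable changes. Ricksha_c had 10.6, 6.32 and 7.11 repeat CPM in control and 12.6, 10.5 and 14.6 in Dnmt1Δ/Δep libraries, where the lowest Dnmt1Δ/Δep library lay just below the highest control (log2 0.64, SE 0.24, edgeR adjusted p = 0.152; 0.0378 with the replicate number as a block). Each of its Dnmt1Δ/Δep libraries lay above the control of the same number, and it met both thresholds with the block and gene-read library sizes together (log2 1.01, adjusted p = 0.00202). Ricksha itself, the most abundant of them, had 17.4, 15.2 and 17.9 against 19.9, 14.9 and 17.7 repeat CPM and an interval of −0.31 to 0.43 on the log2 scale. Ricksha_a (18, 1 and 1 against 9, 2 and 13 reads) and Ricksha_b (0, 6 and 6 against 1, 3 and 6 reads) were too sparse for the main fit. With gene-read library sizes Ricksha_a was tested and did not pass (log2 0.23, edgeR adjusted p = 0.922). Since reads that fit several related names are shared among them by the counting method, these 5 names are not independent measurements.

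Arthur1C, a Tip100-type hAT element, was the only hAT name called. It had 39, 48 and 15 reads in control and 88, 73 and 123 reads in Dnmt1Δ/Δep libraries, or 2.49, 4.05 and 2.05 against 6.5, 6.07 and 5.68 repeat CPM. The groups did not overlap, but the margin was small and the fitted change of 2.09-fold (95% interval 1.35 to 3.25; log2 1.06, SE 0.27, edgeR adjusted p = 0.0491) sat at both thresholds. In 8 of 13 alternatives it was no longer called, with adjusted p-values of 0.0577 to 0.173 there, including every analysis that left out 1 library other than control replicate 2.

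The other Arthur names had negative values, which for Arthur1 and Arthur1A turned positive when library sizes came from gene reads. Arthur1 had 41.0, 29.8 and 35.7 against 30.9, 29.0 and 29.9 repeat CPM (log2 −0.25, SE 0.15) and Arthur1B had 14.3, 12.3 and 13.3 against 12.0, 8.73 and 8.91 (log2 −0.43, SE 0.18). Neither passed the test (edgeR adjusted p = 0.349 and 0.194), although the 3 Dnmt1Δ/Δep libraries of Arthur1B all lay below the controls. Arthur1A varied more between replicate numbers than between groups, with 17.5, 35.1 and 32.8 against 10.9, 30.4 and 29.4 repeat CPM (log2 −0.26, SE 0.42).

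Charlie21a was close to the threshold. This Charlie-type hAT element had 2.62, 1.69 and 0.820 repeat CPM in control and 5.24, 3.49 and 8.04 in Dnmt1Δ/Δep libraries, from 41, 20 and 6 against 71, 42 and 174 reads. All Dnmt1Δ/Δep libraries lay above all controls, with a spread of 3.20-fold within the controls and 2.30-fold within the Dnmt1Δ/Δep group. The fitted change was 3.11-fold (95% interval 1.52 to 6.38; log2 1.64, SE 0.44, edgeR adjusted p = 0.0622), and it passed in the fit blocked on the replicate number (log2 1.56, adjusted p = 0.0230). On the opposite side, Charlie20a had 4.79, 8.93 and 7.11 against 3.99, 4.16 and 3.74 repeat CPM, also without overlap, and the most negative log2 change of all members (−0.80, SE 0.26, edgeR adjusted p = 0.104; 0.0374 with the replicate block, below 2-fold). It met both thresholds when control replicate 1, its lowest control, was left out (log2 −1.08, adjusted p = 0.0216).

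**Figure D2:**
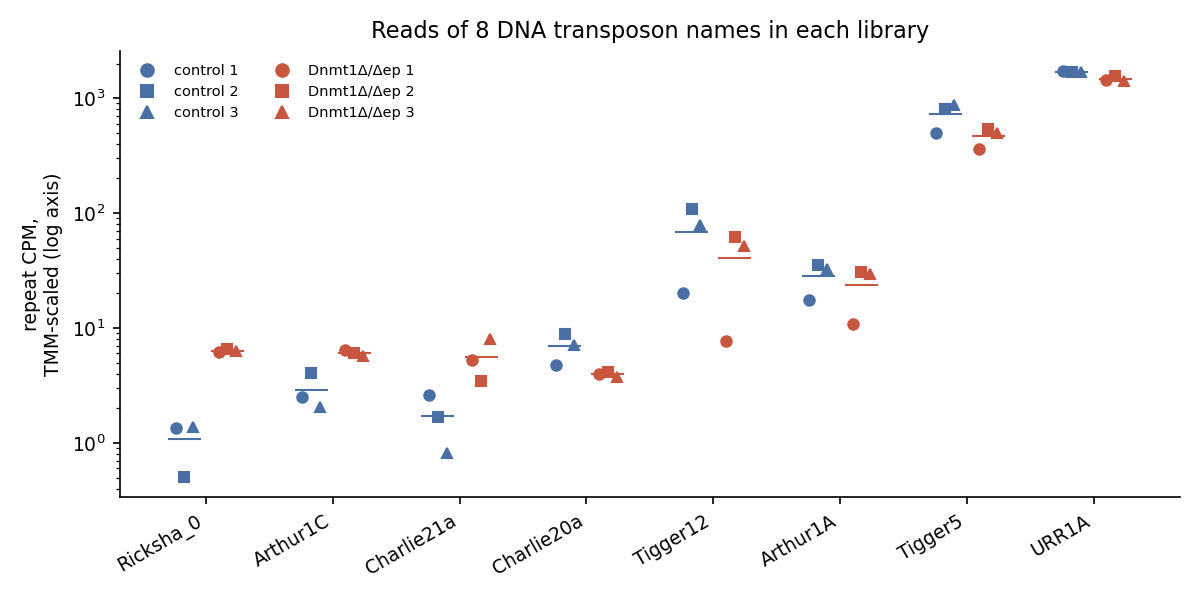
Repeat CPM on the TMM scale (log axis) of 8 DNA transposon names in the 3 control and 3 Dnmt1Δ/Δep libraries; each point is 1 library, its shape gives the replicate number and the line is the mean of 3. Ricksha_0, Arthur1C and Charlie21a show no overlap between groups, whereas Tigger12 and Arthur1A are lowest in replicate 1 of both groups.

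The hAT names as a class lay near the bulk of the repeats, on the low side of it. Their median log2 change was −0.17, with quartiles of −0.29 and 0.03 and a range of −0.80 to 1.64, beside a median of −0.05 over all 938 names. Of 43 tested names, 12 had a positive and 31 a negative value, and in 33 the 95% interval lay within a 2-fold change in either direction. Summed, the hAT names took 5612, 5627 and 5643 repeat CPM in control and 4747, 5190 and 4736 in Dnmt1Δ/Δep libraries. The control libraries were nearly identical on this scale and the Dnmt1Δ/Δep libraries all lay below them, whereas per 1000 gene reads the hAT names took 0.909, 0.694 and 0.773 against 1.06, 0.719 and 0.888 reads, higher in the Dnmt1Δ/Δep library of each replicate number.

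The most abundant hAT names had narrow intervals. URR1A had 1720, 1693 and 1678 repeat CPM in control and 1426, 1543 and 1396 in Dnmt1Δ/Δep libraries (log2 −0.22, SE 0.10, edgeR adjusted p = 0.240), and URR1B had 1532, 1597 and 1628 against 1320, 1498 and 1422 (log2 −0.17, SE 0.11, edgeR adjusted p = 0.371). Both were lower in every Dnmt1Δ/Δep library than in every control on the TMM scale without passing the test, and their intervals excluded a change of 2-fold in either direction. With gene-read library sizes both values were positive, and with upper-quartile factors both passed the adjusted p threshold on the negative side (URR1A log2 −0.47, adjusted p = 0.0145; URR1B log2 −0.41, adjusted p = 0.0249). Charlie8 (−0.36, SE 0.18; edgeR adjusted p = 0.278, blocked 0.0303), Charlie6 (−0.37, SE 0.16) and Charlie1a (−0.07, SE 0.13) overlapped between groups, and their log2 intervals reached from −0.78 to 0.23. Cheshire (−0.20, SE 0.12) and Zaphod2 (−0.46, SE 0.30) did not pass either.

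No Tigger name was called in the comparison. The median log2 change over 20 tested names was −0.23, with quartiles of −0.34 and 0.01 and a range of −0.77 to 0.68, 6 values were positive and 14 negative, and 14 intervals lay within 2-fold. Summed, the Tigger names took 2133, 2603 and 2727 repeat CPM in control and 1712, 2256 and 1967 in Dnmt1Δ/Δep libraries, with replicate 1 lowest in each. The groups overlapped, and each Dnmt1Δ/Δep library lay below the control of the same number (log2 ratios of −0.32, −0.21 and −0.47). Per 1000 gene reads they took 0.346, 0.321 and 0.374 against 0.383, 0.312 and 0.369 reads, higher in the Dnmt1Δ/Δep library of 1 of 3 replicate numbers.

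Tigger5, the most abundant of them, had 494, 804 and 873 repeat CPM in control and 359, 544 and 495 in Dnmt1Δ/Δep libraries. Each Dnmt1Δ/Δep library lay below the control of the same number, with log2 ratios of −0.46, −0.56 and −0.82, but control replicate 1 lay among the Dnmt1Δ/Δep libraries. The unblocked fit gave a log2 change of −0.63 (SE 0.25, edgeR adjusted p = 0.166) and the fit with the replicate number as a block −0.61 (SE 0.10, adjusted p = 0.00316). Tigger12 varied most between libraries, with 20.1, 108 and 79.0 against 7.75, 61.5 and 51.8 repeat CPM. Its replicate 1 was at 0.215 times the mean of the other 2 libraries in control and at 0.137 times in Dnmt1Δ/Δep, while its Dnmt1Δ/Δep to control log2 ratios were −1.38, −0.82 and −0.61 for replicates 1, 2 and 3. Accordingly the unblocked value was −0.77 with an SE of 0.79 (edgeR adjusted p = 0.583) and the blocked value −0.89 with an SE of 0.15 (adjusted p = 0.00430).

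Such spread was unusual among the members. In 74 tested names with a mean of at least 50 reads, the highest library was in the median 1.27 times the lowest within the controls and 1.36 times within the Dnmt1Δ/Δep group, and 3 names exceeded 2-fold within both groups, namely Arthur1A, Charlie21a and Tigger12. Libraries with the same replicate number were also sequenced on the same flow-cell lane, and the part of litter, strain background or lane in this spread was not tested. The other abundant Tigger names, Tigger7 (−0.20, SE 0.11), Tigger1 (−0.29, SE 0.21), Tigger10 (−0.29, SE 0.17) and Tigger14a (0.01, SE 0.28), had log2 intervals between −0.78 and 0.66.

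The direct comparison of hAT with Tigger names gave little difference. The medians differed by 0.06 on the log2 scale, and this small value rested on single libraries. Leaving out Dnmt1Δ/Δep replicate 1 gave −0.015 and leaving out control replicate 3 gave −0.0017, while it became 0.13 when either control replicate 1 or Dnmt1Δ/Δep replicate 2 was dropped. The number of hAT reads per Tigger read does not depend on the library size, and it was 2.63, 2.16 and 2.07 in control and 2.77, 2.30 and 2.41 in Dnmt1Δ/Δep libraries. It was thus higher in the Dnmt1Δ/Δep library of all 3 replicate numbers, by a factor of 1.09 in the mean, while the ranges of the groups overlapped. Without the URR1 names the ratio was 1.11, 0.898 and 0.857 against 1.17, 0.953 and 0.975, again higher in 3 of 3. Tigger5 alone took 26.7% of the mean level of the Tigger names, and its own log2 ratios were −0.46, −0.56 and −0.82. The ratio was not computed without Tigger5, so how far the higher values rest on this 1 name was not tested. Replicate 1 had the highest ratio in both groups, and leaving out control replicate 1 moved the log2 change of the mean ratio from 0.13 to 0.24, and dropping control replicate 3 or Dnmt1Δ/Δep replicate 1 gave 0.06 and 0.04.

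Among the other names, Ricksha_0 was the only 1 of 24 tested that was called, and the median log2 change was −0.10. MARNA, the most abundant of them, had 219, 222 and 291 repeat CPM in control and 198, 206 and 218 in Dnmt1Δ/Δep libraries (log2 −0.24, SE 0.15). MamRep1161 (−0.53, SE 0.18, edgeR adjusted p = 0.120; blocked 0.0222) was lower in every Dnmt1Δ/Δep library than in every control. Kanga1 (−0.32, SE 0.16), Looper (−0.07, SE 0.29), ORSL (0.29, SE 0.22) and Eulor9A (−0.25, SE 0.39) overlapped between groups.

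**Figure D3:**
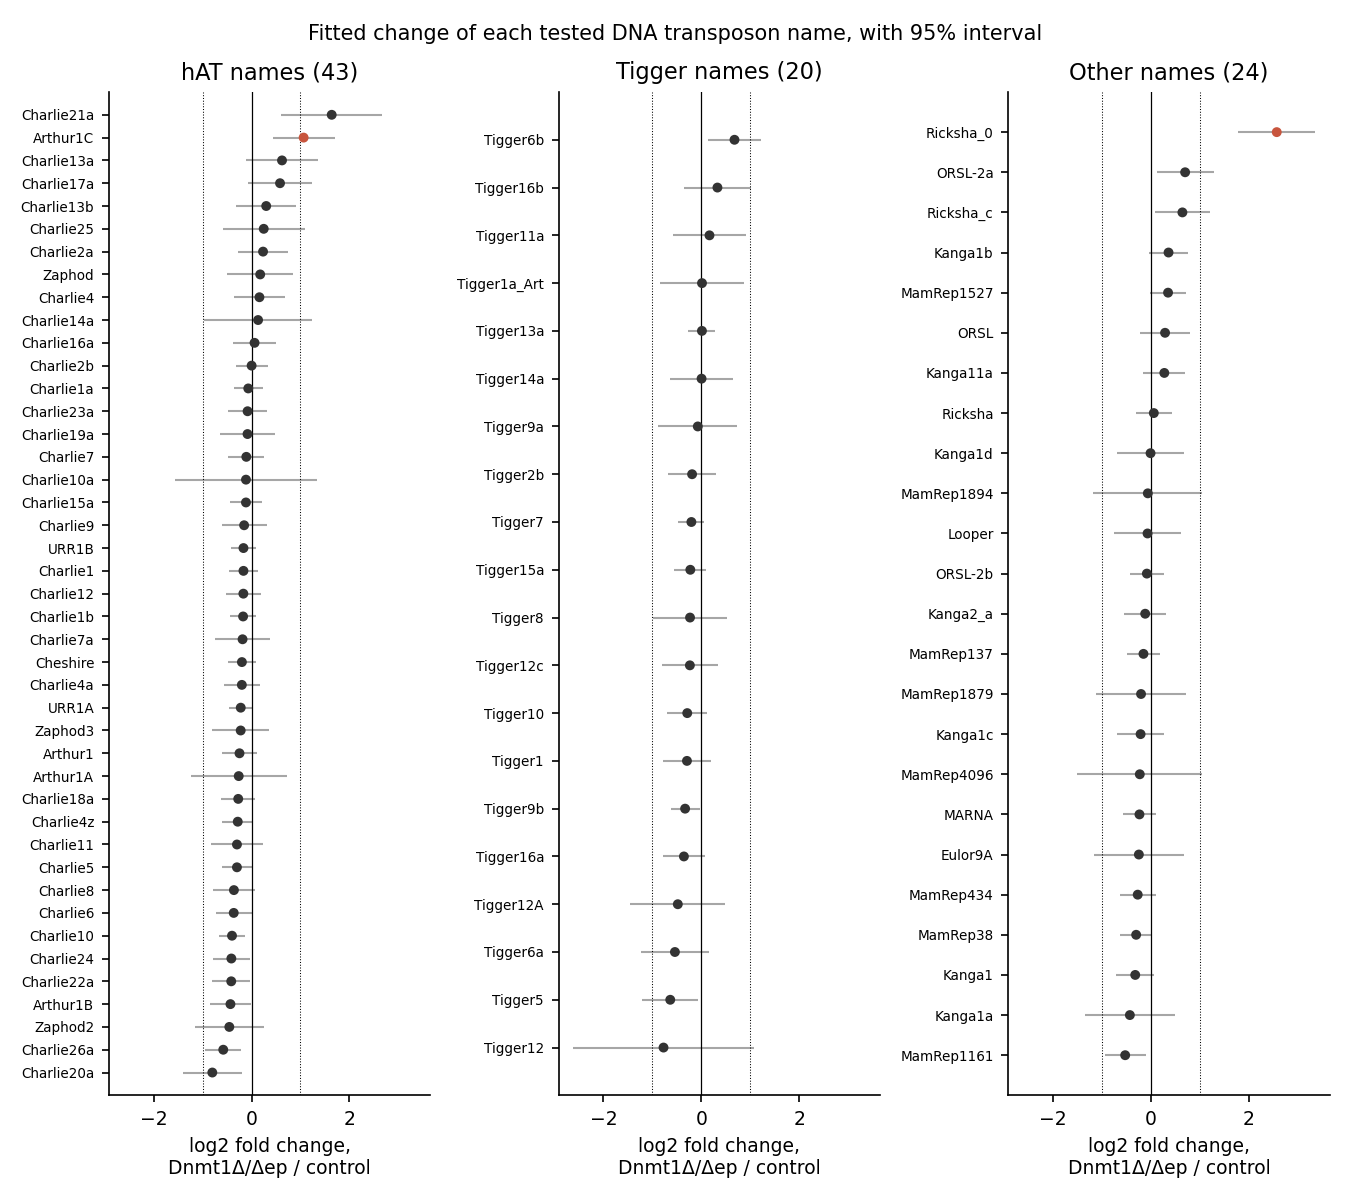
Log2 fold change of each of the 87 tested DNA transposon names (Dnmt1Δ/Δep over control, edgeR with TMM factors) with its 95% interval, in columns for 43 hAT, 20 Tigger and 24 other names; dotted lines mark a 2-fold change and red points the called names. The red points are Arthur1C and Ricksha_0, and 63 of the 87 intervals lie between the dotted lines.

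Precision was lowest for names with few reads. Among the 23 members with a mean of 1000 or more reads, log2 changes ran from −0.63 to 0.06, 2 were positive and 21 intervals lay within 2-fold. Among 38 members with 100 to under 1000 reads, values ran from −0.77 to 0.68 and 32 intervals lay within 2-fold. The 26 members with under 100 reads included both called names, ran from −0.80 to 2.57 and had only 10 intervals within 2-fold, with a median SE of 0.33. Where the interval of an uncalled name reached beyond 2-fold, a change of that size was not excluded.

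**Figure D4:**
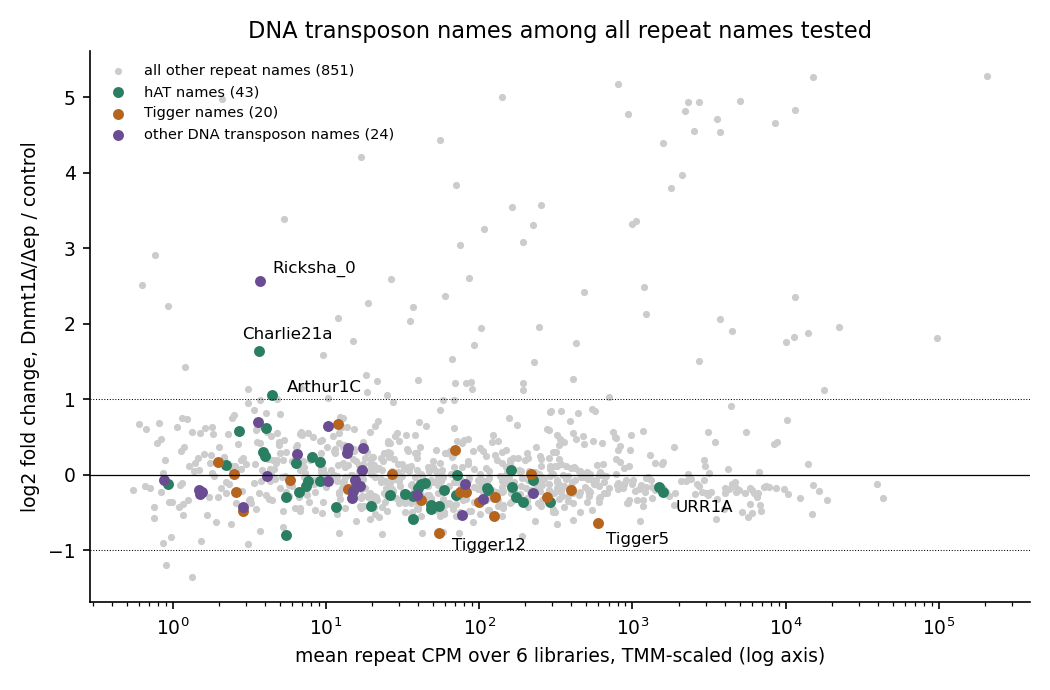
Mean repeat CPM over the 6 libraries (TMM scale, log axis) against log2 fold change for all 938 repeat names tested, with the 43 hAT, 20 Tigger and 24 other DNA transposon names in colour and dotted lines at a 2-fold change. The most abundant member, URR1A, lies just below 0 (−0.22) and Tigger5 further below (−0.63), and the called members Ricksha_0 and Arthur1C are among those with few reads.

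Counted by libraries alone, 9 members (10.3%) were higher in all 3 Dnmt1Δ/Δep libraries than in all 3 controls, and 18 (20.7%) were lower. The same held for 18.3% and 13.4% of all names tested. The 18 lower names comprised 12 hAT names, 2 Tigger names and 4 others. With the replicate number as a block, at the adjusted p alone, 6 members (6.90%) were higher and 10 (11.5%) lower, beside 16.8% and 10.3% of all names. The 10 lower names were 5 hAT, 4 Tigger and 1 other name, with log2 changes of −0.89 (Tigger12) to −0.38 (Tigger16a, which falls outside the rule for named members), and none reached 2-fold.

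The direction of these small values depended on the scale. With library sizes taken from gene reads, the median log2 change of all repeat names was 0.33 instead of −0.05. That of the hAT names was 0.20 and that of the Tigger names 0.14. On that scale 72 of 88 tested members were positive, beside 806 of 940 among all repeat names. The members' median stayed 0.10 to 0.19 below the median of all names in the 13 alternatives. Relative to the bulk of repeats they were thus on the low side under each scale tried, whereas their medians were negative on the scales set by repeat reads and positive with library sizes from gene reads. The calls of Ricksha_0 and Arthur1C held on the gene scale (log2 2.90 and 1.48, adjusted p = 0.00183 and 0.0228), where Charlie21a was called as well.

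**Figure D5:**
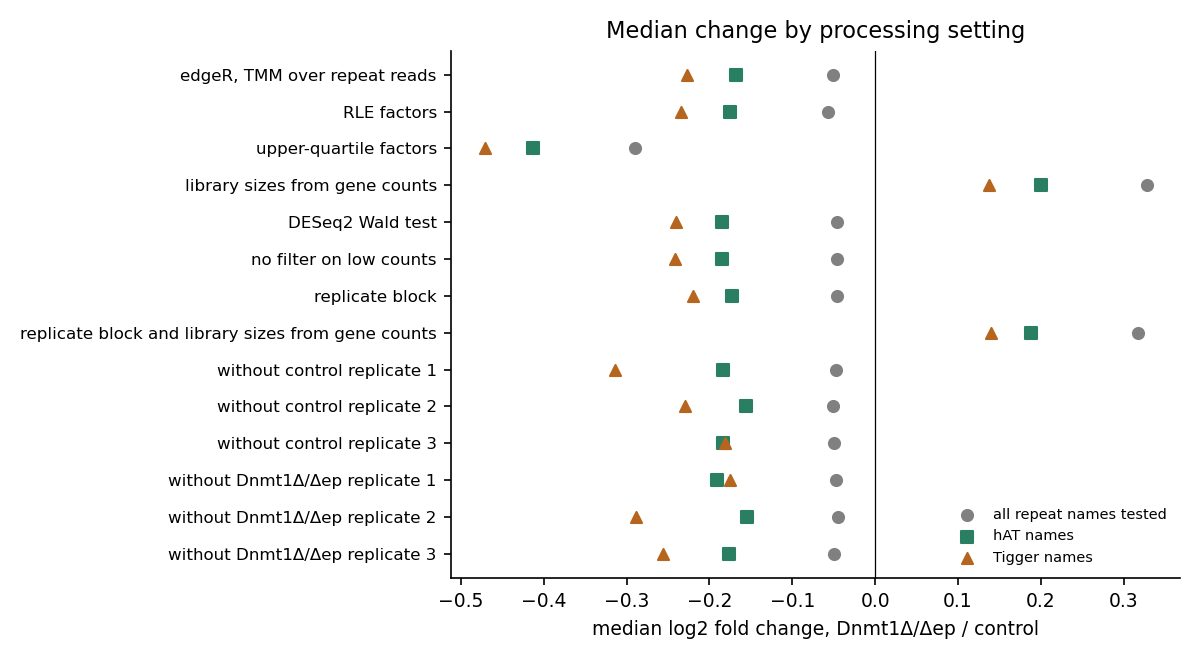
Median log2 fold change (Dnmt1Δ/Δep over control) of all repeat names tested, hAT names and Tigger names under the edgeR fit with TMM factors and 13 alternatives, 1 row each. The hAT and Tigger medians lie to the left of the median of all names in each row, and all 3 are above 0 in the 2 rows with library sizes from gene counts.

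Genes that descend from DNA transposases were examined in the gene count table. Of 19 listed genes 18 were in the table and 16 could be tested, 8 with a positive and 8 with a negative value, and 2 rose (12.5%), whereas 6.03% of the 16829 genes tested were called higher and 0.392% lower. Tigd4, a gene derived from a Tigger-like pogo transposase (ENSMUSG00000047819, GRCm38 chromosome 3, 84593574 to 84597032), had 0.508, 0.390 and 0.298 CPM in control and 2.85, 1.97 and 2.69 CPM in Dnmt1Δ/Δep libraries. This is a 6.19-fold higher level (log2 2.63, SE 0.30, edgeR adjusted p = 0.00256), and it passed in all 10 alternatives.

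Pgbd5, which derives from a piggyBac transposase and is known from brain (ENSMUSG00000050751, GRCm38 chromosome 8, 124369049 to 124439658), had 7.80, 13.9 and 7.73 CPM in control and 33.8, 39.0 and 21.9 CPM in Dnmt1Δ/Δep libraries. The groups did not overlap, and the level was 3.21-fold higher (log2 1.68, SE 0.30, edgeR adjusted p = 0.0154). The call was lost without Dnmt1Δ/Δep replicate 1 (adjusted p = 0.0628) or replicate 2 (adjusted p = 0.0613). In GENCODE M21 no exon base of either gene is shared with an exon of another gene.

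The other 14 tested genes of the list were not called. The highest expressed were Cenpb, whose protein binds a motif in centromeric DNA, with 145, 135 and 120 against 173, 154 and 160 CPM (log2 0.29, SE 0.10, edgeR adjusted p = 0.143), Pogz, a zinc finger protein that binds heterochromatin protein, with a log2 change of −0.18 (SE 0.11), and Pogk with 0.17 (SE 0.20). In Pogk 11.0% of the exon bases are shared with Tada1. Intervals lay within 2-fold for 13 of the 16 tested genes. Zbed6 had no count in any library, and all its exon bases overlap Zc3h11a, so that it was not measurable by this counting. Rag1 had at most 8 reads in a library.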

How the data were processed

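RNA was measured in 6 libraries of cultured epidermal keratinocytes, grouped by the genotype in the labels. The authors deposited raw counts. For genes they used STAR and htseq-count (GRCm38 per the labels). For repeats they aligned reads to the mouse genome with bowtie and used RepEnrich, which sums unique and multi-mapping reads by repeat name, so related names can share reads. The authors' comparison tables hold fold changes, p-values and 12 normalized columns, none of which were used. Rows naming no gene (5) held 8.73% to 12.9% of counts and were left out.

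edgeR 4.0.16 (R 4.3.3) quasi-likelihood tests with TMM factors, filterByExpr (min.count 10, min.total.count 15) and Benjamini-Hochberg adjustment were fitted over all repeat names, and separately over all genes; calls needed both an adjusted p no higher than 0.05 and a change of 2-fold or more. Intervals (95%) use the fitted SE and the t quantile of the fit and cover the spread between libraries. Scripts were tested on simulated data. Alternatives were RLE and upper-quartile factors, library sizes from gene counts, DESeq2 1.42.0, no filter, the replicate number as a block, and each library left out. The members and lists were chosen with earlier results of these data known.

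Named members were all Ricksha and Arthur names, called members, the 5 most abundant hAT and 5 Tigger names, the most abundant name of each other prefix and the 3 largest changes in each direction at a mean of at least 50 reads. Named genes were Dnmt1, called genes of the list and its 3 most abundant genes. Further names are said to fall outside this rule or are listed by a count.

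The replicate numbers come from the sample titles. Deviations from the group means correlated between same-numbered libraries over repeat names (r = 0.631, 0.483 and 0.458 for replicates 1, 2 and 3). Over the member names r was 0.566, 0.339 and 0.326, and over genes 0.431, 0.279 and 0.3. Same-numbered libraries also shared a lane. The main fit left the replicate numbers out, and only the fits with the block took them to pair the samples. Per the labels, the cultures came from 3 mice of each group, and the methods call the libraries biological replicates.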

Additional observations from a re-analysis of the deposited data

How the results depend on the processing

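Ricksha_0 and Tigd4 were called in every alternative run, and Dnmt1 was lower in each. Fewer or more members passed elsewhere. RLE factors, upper-quartile factors and no filter each left 1 name called higher (8.10%, 6.72% and 7.07% of all names were), gene-count library sizes with the replicate block gave 6 (Arthur1C, Charlie21a, ORSL-2a, Ricksha_0, Ricksha_c and Tigger6b; 12.3% of all names), and leaving out 1 library gave 1 to 2 higher (7.59% to 8.24% of all names) and 0 to 1 lower (0 to 1 of all names). Upper-quartile factors called 1 of 87 members lower (1.15%, beside 1.07% of all names), Charlie20a (log2 −1.06, adjusted p = 0.0303). The replicate block alone called 3 names (8.85% of all names), adding Charlie21a; beside the adjusted p counts given above it changed no other call.

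Medians of members, hAT and Tigger names were −0.41, −0.41 and −0.47 with upper-quartile factors, 0.20, 0.20 and 0.14 with gene-count library sizes, and 0.18, 0.19 and 0.14 with gene-count sizes and the block. Without 1 library they ran from −0.24 to −0.15, −0.19 to −0.16 and −0.31 to −0.18, the hAT minus Tigger difference from −0.015 to 0.13, the log2 change of the hAT to Tigger ratio from 0.042 to 0.24 (0.11 without the URR1 names, an alternative chosen after seeing the data), and called transposase-derived genes from 1 to 2. The share of reads changed by −1.21 (log2) per repeat read and 0.13 per gene read.

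Several uncalled values changed sign (cause not tested beyond the scale itself). With gene-count sizes, without and with the block, the log2 values were 0.11 and 0.12 for Arthur1, 0.063 and 0.020 for Arthur1A, 0.14 and 0.14 for URR1A, 0.20 and 0.19 for URR1B, 0.34 and 0.29 for Charlie1a, 0.18 and 0.16 for Tigger7, 0.057 and 0.089 for Tigger1, 0.060 and 0.058 for Tigger10, 0.14 and 0.14 for MARNA, 0.019 and 0.026 for Kanga1, 0.35 and 0.27 for Looper, 0.055 and 0.11 for Eulor9A, and 0.19 and 0.16 for Cheshire. Tigger14a was at −0.0048 with RLE factors, −0.26 with upper-quartile factors, −0.0078 with DESeq2, −0.031 without the filter and −0.018 with the block, and Ricksha at −0.18 with upper-quartile factors. Without 1 library the values ran from −0.30 to 0.20 for Tigger14a, −0.41 to 0.13 for Looper, −0.50 to 0.18 for Eulor9A, −0.59 to 0.080 for Arthur1A, −0.040 to 0.16 for Ricksha and −0.14 to 0.021 for Charlie1a. Names under 100 reads had the widest intervals in the median; the part of depth was not tested.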

Other observations

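Relatives of the same 2 superfamilies that carry other names, mostly MER names, were listed from general knowledge with earlier results of these data known. Of 63 listed names 56 were tested, 45 hAT and 11 Tigger relatives. None was called in either direction by edgeR (8.21% of all names higher, 0% lower), while 3 (5.36%) were higher and 7 (12.5%) lower at an unadjusted p of at most 0.05, where 16.0% and 7.57% of all names were. Their median log2 change was −0.14 for the hAT and −0.17 for the Tigger relatives, with a range over both of −0.61 to 0.83. MER46C, a Tigger relative chosen after its value was seen, had the one adjusted p under the threshold in the unblocked fit (log2 −0.61, edgeR adjusted p = 0.0228). It did not reach 2-fold. With the replicate number as a block, 3 relatives (5.36%) were higher and 10 (17.9%) lower at the adjusted p alone. The same held for 16.8% and 10.3% of all names. With library sizes from gene counts 1 of the 56 was called higher, beside 10% of all names.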
